A study of Mus musculus with 6 samples.

Results

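The aminoacyl-tRNA synthetase genes are described here in the mouse retina after optic nerve crush (ONC). The members were every row of the gene tables whose symbol was on a list of 36 synthetase genes, out of 35485 genes in the tables. Of these, 20 encode cytosolic enzymes or enzymes shared by both compartments (Gars and Kars), and 16, with symbols ending in 2, encode mitochondrial enzymes. Tarsl2 is in the tables but not on the list, and is given separately. Retinas came from wild type C57BL/6 mice of 12 weeks. In the ONC group the exposed optic nerve was crushed with fine forceps 2 mm behind the eyeball for 10 s, and in the sham group it was exposed but not crushed. Retinas were taken 2 days after surgery. RNA from 6 retinas of 6 mice was pooled per sample, with 3 samples per group and 18 retinas per group in all. The errors below thus concern pools and not animals. The standard errors (SE) of log2 fold changes come from a model that shares variance between genes. They are therefore not the spread of a gene's own pools.

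Aminoacyl-tRNA synthetases join each amino acid to its tRNA, the step that supplies the ribosome with charged tRNA. Mammalian cells keep separate nuclear genes for most of the enzymes that serve cytosolic ribosomes and for those that serve mitochondrial ribosomes, which make a small set of respiratory chain subunits. In many cell types, cytosolic synthetase genes belong to the amino acid response, in which the kinases GCN2 or PERK phosphorylate eIF2 and the transcription factor ATF4 binds composite C/EBP-ATF elements near its target genes. Several cytosolic enzymes sit in a multisynthetase complex held by the scaffolds Aimp1, Aimp2 and Eef1e1, and the rest work outside it.

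The 8-letter element TGATGNAA (TTNCATCA on the other strand), in which N is any base, is a form of the composite element that ATF4 binds, so the windows that hold it are shown here. Promoter windows of 250 bases before to 50 after each gene's start were taken from RefSeq (GRCm38.p6), where 13 of the 20 cytosolic and 14 of the 16 mitochondrial genes had an entry that was searched. Lars, Hars, Nars and Hars2 were not searched, and Cars, Rars, Vars, Wars and Pars2 were not in the table. The element was searched with earlier results known. Each run below holds 30 bases around a match, with 1 match shown per gene, read 5′ to 3′ on the strand of the gene, with the 8 matching letters in capitals and positions counted from the RefSeq start, which can differ from the start in the gene tables.
Aars, chr8:111033840-111033869, + strand, positions 10 to 17: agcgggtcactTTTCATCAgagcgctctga
Gars, chr6:55037960-55037989, + strand, positions -30 to -23: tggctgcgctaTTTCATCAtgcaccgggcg
Tars, chr15:11399655-11399684, - strand, positions -15 to -8: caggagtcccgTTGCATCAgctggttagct
Iars, chr13:49682126-49682155, + strand, positions 8 to 15: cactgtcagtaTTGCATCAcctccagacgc
Yars, chr4:129189895-129189924, + strand, positions 4 to 11: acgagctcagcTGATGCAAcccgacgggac

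The element stood in the windows of 5 of the 13 cytosolic genes searched (38.5%) and of 0 of the 14 mitochondrial genes searched. Over all genes it stood in 1304 of 32851 windows (3.97%), a count of windows and not of genes, and some genes have several windows. Yars carried it in the orientation TGATGNAA, and the other genes carried it as TTNCATCA. The 5 genes with a match were among the 8 searched cytosolic genes that were higher after ONC, and 0 of the 5 searched cytosolic genes that did not pass the threshold had one. Sars rose without a match in its window. The 250 bases before its start (chr3:108445260-108445509, - strand), shown because Sars rose more than any member but Cars, read as follows.
Sars: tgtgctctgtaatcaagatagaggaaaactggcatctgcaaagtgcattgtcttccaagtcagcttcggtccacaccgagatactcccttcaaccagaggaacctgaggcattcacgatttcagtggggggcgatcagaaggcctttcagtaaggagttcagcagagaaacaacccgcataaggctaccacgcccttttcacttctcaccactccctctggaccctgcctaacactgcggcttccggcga
A match describes letters in a window and not binding, and no match says only that these letters were not in these bases.

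Each sample had 17343945 to 18349331 exon reads in the sham group and 20019818 to 20358008 in the ONC group. Exon reads made up 70.9 to 76.6% of gene reads in sham and 78.5 to 80.4% in ONC, so the exon share moved with the group, and its part in the results was not tested. Of 13670 genes with a mean RPKM (exon reads scaled by exon length and by the mapped reads of the sample) above 0.3 in either group, 325 were higher (2.38%) and 508 lower (3.72%) at a false discovery rate (FDR) under 0.1. Under the authors' RPKM scaling the split was 1507 higher (11%) and 223 lower (1.63%), and the median log2 fold change of all genes moved from 0.01 to 0.13. Retinal ganglion cell markers were lower in 8 of 9 cases, or 7 under the RPKM scaling, with Slc17a6 higher. Thy1, counted among the 8, was at -0.22 (SE 0.06, adjusted p = 0.0517 by edgeR). The paper, by its own test of RPKM values, found no significant change of Thy1. Microglial markers were higher in 5 of 9 cases, or 2 with a replicate block. Their summed level was 19.3 to 22.8 RPKM in sham and 34.3 to 39.6 in ONC. Aif1 had a negative estimate (log2 fold change -0.32, SE 0.64), did not pass, and stayed below 1 RPKM on average in both groups. Itgam and Cd68, which passed, and Cx3cr1 were also below 1 RPKM on average in sham. Photoreceptor markers were higher in 2 of 9 cases (Sag and Pde6b), amacrine and bipolar markers lower in 1 of 9 (Calb2), and Müller and astrocyte markers higher in 1 of 7 (Clu). Of 5 pigment epithelium and 5 endothelial markers, none passed by edgeR or DESeq2, and 1 and 0 had an unadjusted p under 0.05. The part of these shifts in the synthetase values was not tested.

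Cytosolic synthetase mRNAs rose as a partial group. All 20 cytosolic or dual genes passed the level filter, and 11 of them (55%) were higher after ONC at FDR under 0.1, against 2.38% of all genes tested. DESeq2's Wald test also called 11, against 2.59% of all genes. None was lower by edgeR's quasi-likelihood test or by DESeq2, and none had an unadjusted p under 0.05 in that direction. By edgeR, 2 genes, Cars and Sars, passed both thresholds of the study, FDR under 0.1 and a fold change above 1.5. Of all genes 0.827% did so. Under the RPKM scaling 5 genes passed both, against 1.92% of all genes. They were Cars, Sars, Gars, Tars and Aars, with log2 fold changes of 0.91, 0.71, 0.63, 0.62 and 0.61. The paper, which tested RPKM values by another method, lists AARS, GARS and SARS among the ATF4 targets in its own set of changed genes. The median log2 fold change of the 20 genes was 0.23, beside 0.01 for all genes, whose 75th percentile was 0.13. On CPM, read counts scaled to a common library size by TMM, the groups did not overlap and ONC was higher for 13 of the 20 genes (65%), which held for 11% of all genes. The summed level of the class was 430, 429 and 380 RPKM in sham and 547, 581 and 542 RPKM in ONC. In whole retina, more RNA per cell and more cells of a type cannot be told apart.

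**Figure D1:**
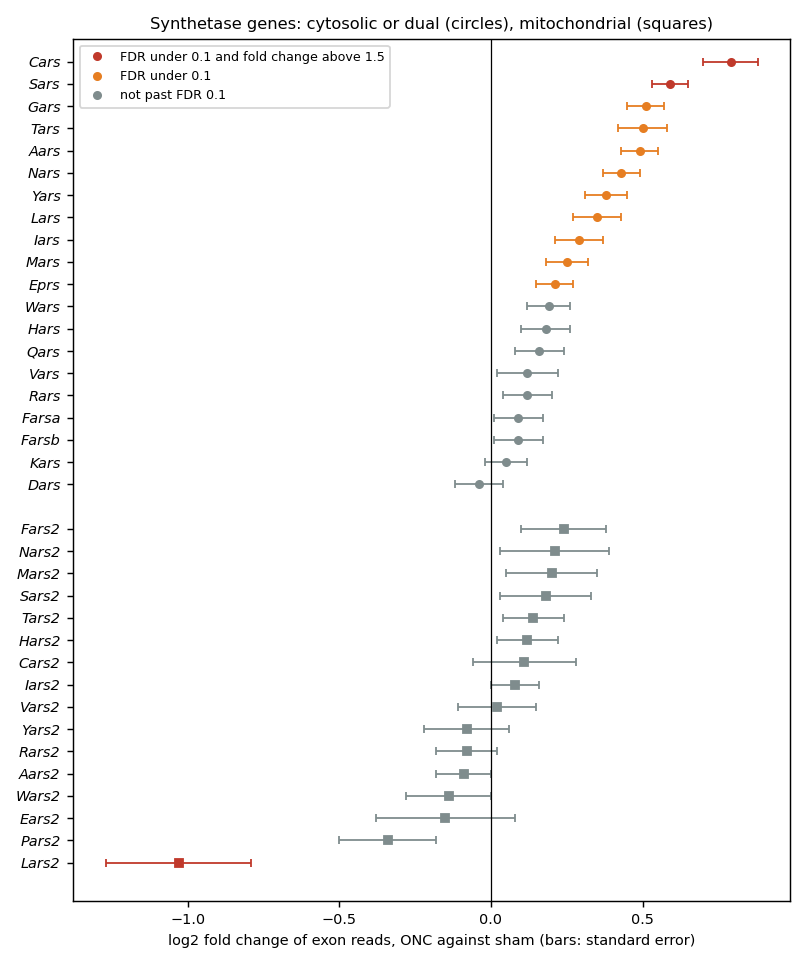
Log2 fold change of exon reads, ONC against sham, for the 36 synthetase genes, with bars of 1 standard error. The 20 cytosolic or dual genes (circles) run from -0.04 to 0.79 with 11 past FDR 0.1, while the mitochondrial genes other than Lars2 (squares) lie between -0.34 and 0.24 and none of those 15 passed.

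The enzyme for cysteine rose most. Cars (chromosome 7, 143557230 to 143600090, positions as in the gene tables, which match GRCm38) had 496, 499 and 549 exon reads in the sham samples and 999, 1051 and 1050 in the ONC samples. The lowest ONC sample was well above the highest sham sample. Its level rose from 6.71 ± 0.249 to 12.6 ± 0.433 RPKM (mean ± SD, n = 3), with a log2 fold change of 0.79 (SE 0.09, adjusted p = 1.3e-05 by edgeR's quasi-likelihood test with Benjamini-Hochberg adjustment, used throughout). Sars (chromosome 3, 108424864 to 108445259), which charges the serine and selenocysteine tRNAs, had 2648, 2554 and 2314 reads in sham and 4272, 4567 and 4264 in ONC. Its groups did not overlap either, and it rose by 0.59 on the log2 scale (SE 0.06, adjusted p = 5.16e-06), from 28.5 ± 2.8 to 46.5 ± 2.7 RPKM (n = 3). This change is near the 1.5-fold limit, and Sars fell below it when either sham replicate 2 or 3 or ONC replicate 1 or 2 was left out, leaving 1 gene past both thresholds.

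Gars, Tars and Aars rose by similar amounts. Gars (chromosome 6, 55038001 to 55079504), whose transcripts encode both the cytosolic and the mitochondrial glycine enzyme, had 1759, 1715 and 1664 reads in sham and 2838, 2877 and 2762 in ONC. This was a rise from 30.1 ± 1.79 to 46.6 ± 1.93 RPKM (n = 3), with a log2 fold change of 0.51 (SE 0.06, adjusted p = 3.4e-05). Tars (chromosome 15, 11383663 to 11399658), for threonine, had 782, 739 and 760 reads in sham and 1221, 1282 and 1239 in ONC. The narrow ranges of both groups lay far apart, and the log2 fold change was 0.50 (SE 0.08, adjusted p = 0.000557), from 12.1 ± 0.672 to 18.7 ± 0.774 RPKM (n = 3). Aars (chromosome 8, 111033967 to 111056870), for alanine, had 3429, 3815 and 3343 reads in sham and 5998, 5705 and 5579 in ONC. All 3 ONC samples exceeded the sham samples, with a log2 fold change of 0.49 (SE 0.06, adjusted p = 3.25e-05) and levels of 30.3 ± 2.32 and 46.4 ± 2.27 RPKM (n = 3). Aars shares 532 bases with Exosc6, which had 557 exon reads over all samples, and the sources used here do not state whether reads were counted by strand.

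Smaller rises were found for the enzymes of asparagine and tyrosine. Nars (chromosome 18), at 51.2 ± 5.68 RPKM the most abundant cytosolic member in sham retinas, had 3247, 3525 and 2904 reads in sham and 4998, 5299 and 4817 in ONC. It reached 75 ± 5.15 RPKM (n = 3), a log2 fold change of 0.43 (SE 0.06, adjusted p = 0.000269) with no overlap of the groups. Yars (chromosome 4, 129189795 to 129219607) had 1246, 1375 and 1310 reads in sham and 2015, 2059 and 1839 in ONC. Its log2 fold change was 0.38 (SE 0.07, adjusted p = 0.00385), from 19.2 ± 0.72 to 27.1 ± 2.14 RPKM (n = 3), and its lowest ONC sample was again above every sham sample.

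The remaining 4 genes that passed encode members of the multisynthetase complex. Lars (chromosome 18), for leucine, had 847, 886 and 818 reads in sham and 1187, 1224 and 1356 in ONC, and rose by 0.35 on the log2 scale (SE 0.08, adjusted p = 0.011), from 9.39 ± 0.53 to 13 ± 0.708 RPKM (n = 3). Iars (chromosome 13, 49682130 to 49734267), for isoleucine, had 1369, 1532 and 1366 reads in sham and 2190, 2048 and 1815 in ONC, a log2 fold change of 0.29 (SE 0.08, adjusted p = 0.0436) with levels of 13.6 ± 0.927 and 18.1 ± 1.96 RPKM (n = 3). The 3 ONC samples of Iars were spread more widely than those of Lars, but neither gene's groups overlapped. Mars (chromosome 10, 127296221 to 127311786), for methionine and the initiator tRNA, had 1305, 1203 and 1325 reads in sham and 1710, 1774 and 1831 in ONC. Its log2 fold change was 0.25 (SE 0.07, adjusted p = 0.0592), from 18.1 ± 1.11 to 23.6 ± 0.666 RPKM (n = 3). Mars shares 68 bases with Ddit3, a gene of the same stress response that also rose. Eprs (chromosome 1, 185363095 to 185428355), a single protein that charges both the glutamate and the proline tRNAs, had 2703, 2858 and 2598 reads in sham and 3762, 3596 and 3557 in ONC. It showed the smallest change that passed, 0.21 (SE 0.06, adjusted p = 0.0652), from 23.6 ± 1.47 to 29.6 ± 1.2 RPKM (n = 3).

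Over 18 alternative settings, Eprs lost its call in 10, Mars in 7, Iars in 6, Nars in 2 and Lars in 1, and Aars, Cars, Gars, Sars, Tars and Yars in 0. With 1 sample left out, Eprs kept its call only without ONC replicate 1. Mars lost it without sham replicate 1 or 2 or ONC replicate 2 or 3, Iars without any of the sham replicates or ONC replicate 2, and Lars without ONC replicate 3. Without sham replicate 1, sham replicate 2, ONC replicate 2 or ONC replicate 3 the number of cytosolic genes called was 8, without sham replicate 3 it was 9, and without ONC replicate 1 it was 12. With the replicate number as a block it was 10 (2.06% of all genes). None of the 11 genes changed direction under any of the 18 settings.

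**Figure D2:**
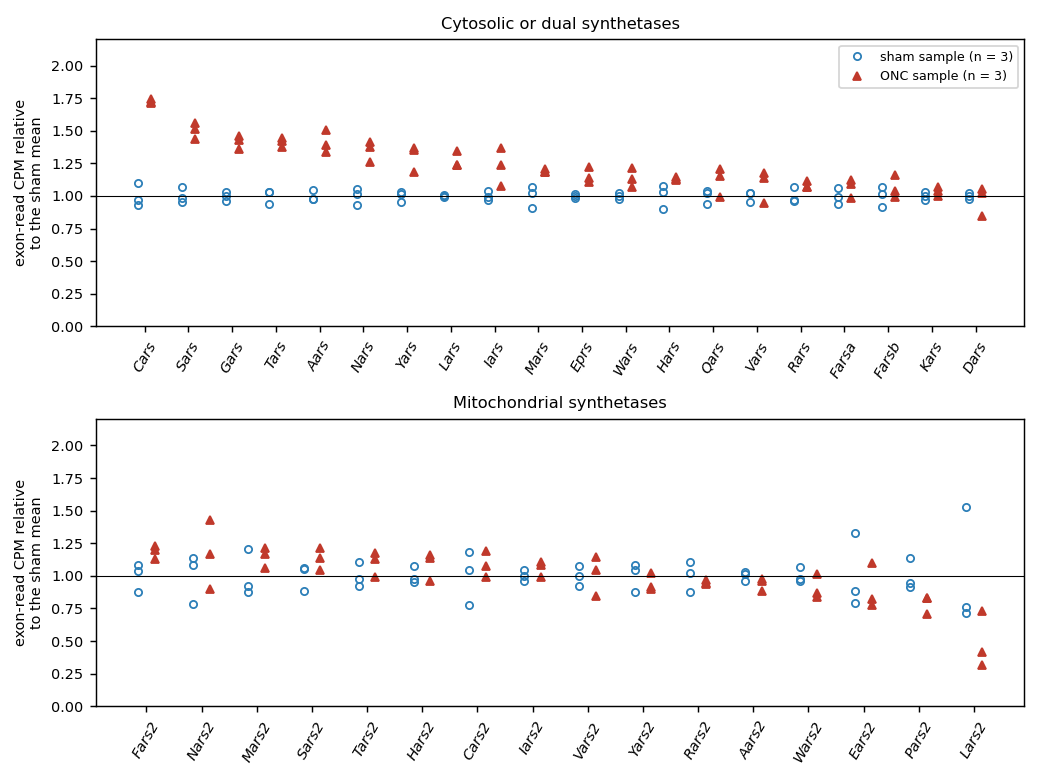
Exon-read CPM of each synthetase gene in each sample, divided by the mean of the 3 sham samples (open circles sham, triangles ONC, n = 3 pools each). For the 11 cytosolic genes that passed and for Wars and Hars the triangles lie wholly above the circles, whereas for most mitochondrial genes the samples overlap.

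The other 9 cytosolic genes had log2 fold changes between -0.04 and 0.19. Wars, for tryptophan, had 1492, 1619 and 1476 reads in sham and 2091, 1912 and 2045 in ONC, at 0.19 (SE 0.07, adjusted p = 0.153). Hars, for histidine, had 1088, 1182 and 926 reads in sham and 1376, 1394 and 1428 in ONC, at 0.18 (SE 0.08, adjusted p = 0.238). In both genes every ONC sample stood above the sham samples on the CPM scale although the test was not passed. Qars, Rars, Vars, Farsa and Farsb, for glutamine, arginine, valine and the 2 subunits of the phenylalanine enzyme, lay between 0.09 and 0.16, with SEs of 0.08 to 0.10 and overlapping samples. Kars, whose gene serves both compartments, was at 0.05 (SE 0.07, adjusted p = 0.765) with 1368, 1389 and 1258 reads in sham and 1509, 1668 and 1649 in ONC. Dars, for aspartate, was at -0.04 (SE 0.08, adjusted p = 0.872) with 1063, 1165 and 1065 reads in sham and 1046, 1350 and 1334 in ONC. Under the RPKM scaling 14 of the 20 genes passed FDR 0.1, against 11% of all genes, and Dars was at 0.09.

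Members of the complex and enzymes that work outside it differed in range. This grouping was made after the values were seen, and the difference was not tested. Of the 8 complex members (Dars, Eprs, Iars, Kars, Lars, Mars, Qars and Rars), 4 passed, the log2 fold changes ran from -0.04 to 0.35 and their median was 0.18. Of the 12 others, 7 passed, with a range of 0.09 to 0.79 and a median of 0.40. The 7 cytosolic genes with the largest rises, from Cars to Yars, all belonged to this second group. The 3 scaffold genes did not pass by edgeR or DESeq2, and 1 had an unadjusted p under 0.05. Aimp1 was at 0.22 (SE 0.08, adjusted p = 0.18), with 682, 742 and 729 reads in sham and 935, 934 and 1045 in ONC. Aimp2 was at -0.24 (SE 0.15, adjusted p = 0.438) with 292, 288 and 353 reads in sham and 236, 333 and 349 in ONC, and Eef1e1 at -0.00 (SE 0.09, adjusted p = 0.992) with 697, 716 and 691 reads in sham and 802, 852 and 784 in ONC.

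The mitochondrial synthetases did not move as a group. All 16 genes passed the level filter, and 0 were higher by edgeR's quasi-likelihood test or DESeq2, with 0 at an unadjusted p under 0.05 in that direction. In the other direction 1 gene, Lars2, passed FDR 0.1 by edgeR and 0 by DESeq2, with 2 at an unadjusted p under 0.05 (Lars2 and Pars2). The background of lower genes was 3.72% by edgeR and 4.23% by DESeq2. Lars2 also passed the 1.5-fold limit, as did 0.834% of all genes in that direction. The other 15 genes ran from -0.34 (Pars2) to 0.24 (Fars2), with a median of 0.08, and 9 of the 15 were above 0, beside 52.3% of all genes. Their summed level was 90.3, 82.3 and 79.7 RPKM in sham and 89.1, 96.6 and 95.3 RPKM in ONC, and these groups overlapped. These genes were also measured less precisely. Their levels in sham ranged from 2.04 to 14.1 RPKM with a median of 4.18, against 6.33 to 51.2 with a median of 20.2 for the cytosolic class, and their exon reads per sample ranged from 99 to 1383. Their SEs were 0.08 to 0.23 on the log2 scale, and changes the size of those of Mars or Eprs did not pass in this class (Fars2 at 0.24 had an adjusted p of 0.417).

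The mitochondrial counterparts of the genes that rose give the direct comparison. Cars2 had 217, 148 and 186 reads in sham and 247, 212 and 234 in ONC, with a log2 fold change of 0.11 (SE 0.17, adjusted p = 0.79). Sars2 had 172, 214 and 198 reads in sham and 229, 277 and 261 in ONC, at 0.18 (SE 0.15, adjusted p = 0.581). Both sets of samples overlapped on the CPM scale. Tars2 had 654, 565 and 561 reads in sham and 666, 783 and 825 in ONC, at 0.14 (SE 0.10, adjusted p = 0.531). Aars2, an enzyme whose loss of function is known to cause cardiomyopathy and leukoencephalopathy, had 605, 639 and 555 reads in sham and 596, 672 and 694 in ONC, at -0.09 (SE 0.09, adjusted p = 0.684). The 2 alanine enzymes thus had estimates of opposite sign, but Aars2 was at 0.03 under the RPKM scaling.

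Nars2 had 142, 215 and 191 reads in sham and 293, 191 and 251 in ONC, at 0.21 (SE 0.18, adjusted p = 0.6). Yars2 had 235, 255 and 194 reads in sham and 262, 240 and 247 in ONC, at -0.08 (SE 0.14, adjusted p = 0.827). In CPM the samples of both genes overlapped between groups. Iars2 had 1048, 1050 and 1069 reads in sham and 1184, 1331 and 1383 in ONC, at 0.08 (SE 0.08, adjusted p = 0.63). Mars2, a gene of 1 exon, had 276, 219 and 193 reads in sham and 315, 285 and 317 in ONC, at 0.20 (SE 0.15, adjusted p = 0.525). Iars2 shares 85 bases with Rab3gap2. The counterparts of Eprs for its 2 amino acids are Ears2 and Pars2. Ears2 had 106, 99 and 155 reads in sham and 150, 116 and 111 in ONC, at -0.15 (SE 0.23, adjusted p = 0.793). Pars2 had 225, 189 and 181 reads in sham and 159, 193 and 195 in ONC, at -0.34 (SE 0.16, adjusted p = 0.294). In CPM every ONC sample of Pars2 was below every sham sample, the single mitochondrial gene with that order (10.8% of all genes), and Fars2 was the single gene with the opposite order (172, 213 and 208 reads in sham, 274, 260 and 280 in ONC, adjusted p = 0.417).

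Outside the list, the threonine enzyme homologue Tarsl2 was at 0.04 (SE 0.09, adjusted p = 0.844).

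The value of Lars2 depended on which reads were counted. Lars2 (chromosome 9, 123366940 to 123462664), the mitochondrial leucine enzyme, had 141487, 138760 and 276212 exon reads in sham and 155084, 68579 and 92597 in ONC. Sham replicate 3 was far above the others and ONC replicate 1 lay above sham replicates 1 and 2, so the groups overlapped. The log2 fold change was -1.03 (SE 0.24, adjusted p = 0.0168), and without sham replicate 3 it was -0.59 and did not pass. This SE was moderated across genes, whereas the log2 ratio of Lars to Lars2 given below had an SE of 0.51 from its own samples. Reads that span 2 exons told otherwise, with 235, 215 and 261 in sham and 255, 265 and 318 in ONC. By these reads the log2 fold change was 0.02 (SE 0.14, adjusted p = 0.975).

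Exon-exon reads were 0.177% of the exon reads of Lars2, the fourth lowest share among 5392 genes with at least 10 exons and 1000 reads, whose median share was 51%. The median coverage along its exons was 22, 20 and 23 reads per base in sham and 19, 23 and 27 in ONC. Both of these measures overlapped between groups, and sham replicate 3 did not stand apart from the other samples in either. Reads over the span of Esp38, a gene with 0 exon reads, went in the same order across samples as the exon reads of Lars2 for the extremes. There were 801603, 708414 and 1193154 in sham and 677883, 391987 and 463320 in ONC, with sham replicate 3 highest and ONC replicate 2 lowest in both. Where the excess reads come from was not tested. These measures were chosen after the reads of Lars2 were seen.

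**Figure D3:**
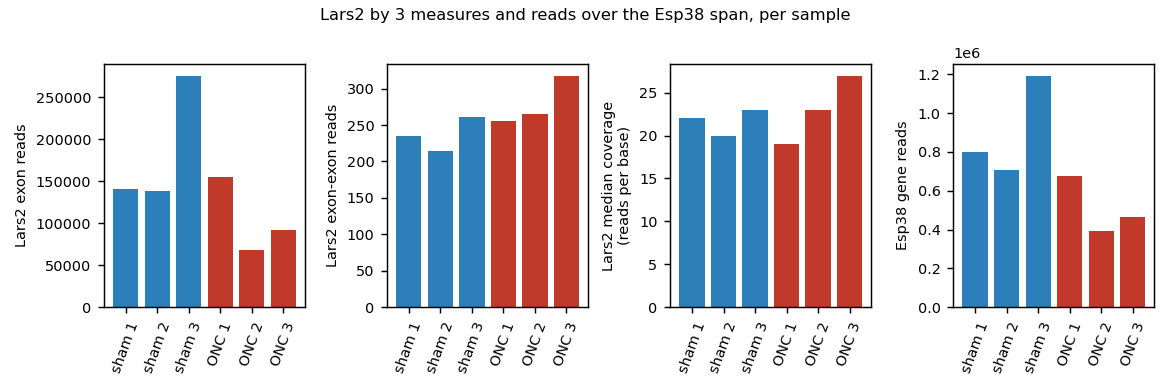
Exon reads, exon-exon reads and median coverage (reads per base) of Lars2, and gene reads over the Esp38 span, in each sample (blue sham, red ONC, linear axes from 0). Exon reads of Lars2 peak at 276212 in sham replicate 3 and fall to 68579 in ONC replicate 2, while exon-exon reads stay between 215 and 318.

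A ratio of the cytosolic to the mitochondrial enzyme for the same amino acid, in reads per kilobase within each sample, does not depend on library scaling. There were 17 such pairs, counting Eprs against both Ears2 and Pars2 and both subunits of the phenylalanine enzyme against Fars2. The log2 ratio was higher in ONC on average in 15 of the 17 pairs, and its ONC samples were wholly above its sham samples in 8, or in 7 of 16 without Lars2, and wholly below them in 0. No share over other gene pairs was computed to set beside these counts. The median change without Lars2 was 0.28. With 3 samples against 3, the two-sided exact permutation test cannot go below p = 0.1, so no pair could pass 0.05. The separated pairs all had an exact p = 0.1, or 0.213 after Benjamini-Hochberg adjustment over the 17 pairs.

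The cysteine pair changed most apart from leucine. The log2 ratio of Cars to Cars2 was 0.39, 0.95 and 0.76 in sham and 1.22, 1.51 and 1.37 in ONC, a difference of 0.66. In linear terms the cytosolic gene had 1.63 times the reads per kilobase of the mitochondrial gene in sham and 2.57 times in ONC. The alanine pair was at 1.96, 2.03 and 2.04 in sham and 2.78, 2.54 and 2.46 in ONC, a difference of 0.58 over a tight sham spread (SD 0.05, n = 3). Eprs over Pars2 was at 2.93, 3.26 and 3.19 in sham and 3.91, 3.56 and 3.53 in ONC, a difference of 0.54. The tyrosine, serine, threonine and tryptophan pairs differed by 0.45, 0.41, 0.36 and 0.33, also without overlap. In the cysteine, serine and threonine pairs both members had positive estimates, and in the tryptophan pair neither gene alone passed the test.

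The other pairs overlapped between groups. Eprs over Ears2 differed by 0.34, the asparagine pair by 0.22 and the isoleucine pair by 0.21. The arginine, valine, histidine and methionine pairs differed by 0.19, 0.11, 0.07 and 0.04. Both phenylalanine ratios were lower after ONC by 0.16 on average (exact permutation p = 0.5 and 0.6). Mars passed on its own, but its ratio to Mars2 differed by only 0.04. The estimate of Mars2 was also positive (0.20, SE 0.15) but did not pass. For leucine the log2 ratio was -7.66 ± 0.61 in sham and -6.28 ± 0.64 in ONC (SD, n = 3) by exon reads, a difference of 1.38. By exon-exon reads it was 1.71, 1.85 and 1.40 in sham and 2.09, 1.97 and 1.88 in ONC, a difference of 0.33 with no overlap (exact permutation p = 0.1). The sign of the ratio itself thus turned with the reads counted.

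**Figure D4:**
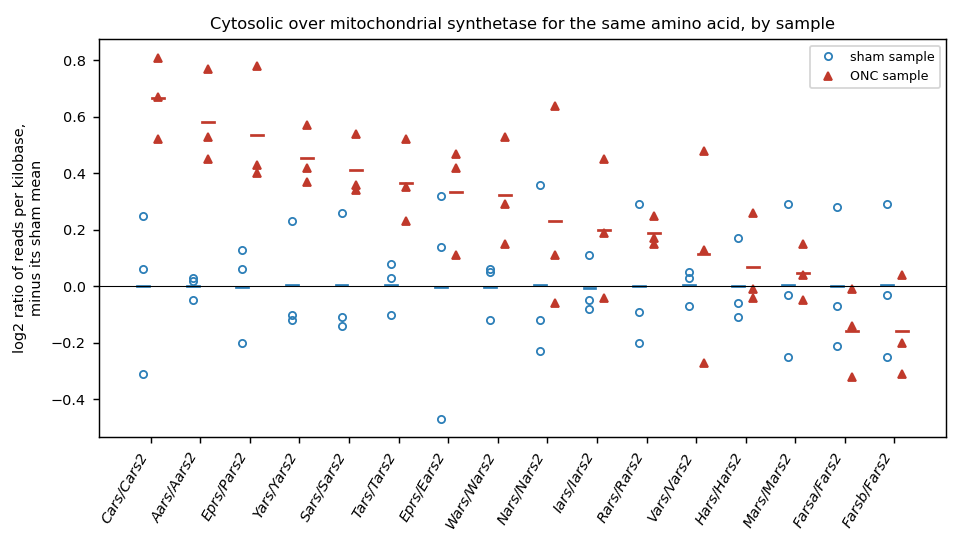
Log2 ratio of cytosolic to mitochondrial synthetase reads per kilobase for the same amino acid, by sample, minus the mean of the 3 sham samples (open circles sham, triangles ONC, lines group means), without the leucine pair. ONC samples lie wholly above sham samples in 7 of the 16 pairs, led by cysteine with a mean difference of 0.66, and both phenylalanine pairs lie lower by 0.16.

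Intron reads, the gene reads outside exons, gave a second readout, which was thinner. Of 13520 genes tested, 0.459% were higher and 2.17% lower at FDR under 0.1. Among the 20 cytosolic genes, Cars and Sars passed. Cars had 207, 182 and 230 intron reads in sham and 329, 332 and 356 in ONC, at 0.76 (SE 0.17, adjusted p = 0.0674). Sars had 144, 178 and 162 in sham and 190, 252 and 328 in ONC, at 0.68 (SE 0.19, adjusted p = 0.0962). Both genes had more intron reads in every ONC sample, and these 2 had also changed most in exon reads. Neither passed when the exon-read scaling was used, where Cars was at 0.52 and Sars at 0.48. That scaling moved the median intron estimate of all genes from 0.03 to -0.19. Nor did either gene pass when sham replicate 2, ONC replicate 2 or ONC replicate 3 was left out. Cars also did not pass without ONC replicate 1, and Sars without sham replicate 1 or 3 or with the replicate block. The count of cytosolic genes higher in introns was still 2 without ONC replicate 1 and 2 without sham replicate 1. A cytosolic gene other than Cars and Sars thus passed in each of these settings. The 3 shared omissions also left 0, 3 and 1 genes past FDR among all genes, with 2119, 1361 and 1793 at an unadjusted p under 0.05.

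The estimates for introns were above 0 in 19 of the 20 cytosolic genes, with a median of 0.40, beside 0.03 for all genes, whose 75th percentile was 0.30. The median was 0.38 for the 11 genes that rose in exon reads and 0.42 for the 9 that did not, so the intron estimates did not separate these sets. Qars, with 17, 21 and 29 intron reads in sham and 25, 77 and 80 in ONC, had the largest estimate (1.43, SE 0.42, adjusted p = 0.11) on few reads. For 15 mitochondrial genes the median was 0.07, with 0 genes higher by edgeR and 1 with an unadjusted p under 0.05. Fars2, for phenylalanine, was lower in its introns (443, 539 and 749 reads in sham, 280, 224 and 263 in ONC, log2 fold change -1.11, SE 0.20, adjusted p = 0.0416). All 3 ONC samples were below all sham samples there, while its exon reads had an estimate of 0.24. This call was lost without sham replicate 2, ONC replicate 2 or ONC replicate 3, while the log2 fold change stayed between -1.31 and -0.93 with any 1 sample left out. By exon-exon reads alone, 9 cytosolic genes were higher (background 1.2%) and 0 of 15 mitochondrial genes, with 0 of the latter at an unadjusted p under 0.05.

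Related genes were read from lists chosen with earlier results of these samples known, so their counts are not independent evidence. Genes of the amino acid response were higher in 16 of 20 cases, 13 of them by more than 1.5-fold, with a median log2 fold change of 0.75. Chac1, which degrades glutathione, rose most, from 50, 45 and 47 reads to 345, 337 and 319 (2.60, SE 0.17, adjusted p = 1.67e-08). The transcription factor Atf3 rose by 2.30 on the log2 scale and Phgdh, the first enzyme of serine synthesis, by 1.91. The kinase regulator Trib3 rose by 1.40, the cationic amino acid transporter Slc7a3 by 1.32 and the mitochondrial folate enzyme Mthfd2 by 1.18. The adjusted p-values of these 5 genes ran from 7.95e-08 (Atf3) to 0.00122 (Trib3). Atf4 itself had 4776, 4647 and 4270 reads in sham and 7756, 7974 and 7733 in ONC, at 0.56 (SE 0.06, adjusted p = 2.73e-06), and was named after its value was seen. The changes of the cytosolic synthetases, 0.79 at most, were smaller than those of the genes from Chac1 to Mthfd2, which were named for the size of their change. The ranges overlapped, since this list ran from 0.13 to 2.60, and Cars at 0.79 lay above its median and above Atf4. The promoter element was present in the windows of 5 of the 18 genes of this list that had a window (27.8%).

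Other steps around tRNA charging changed little in these samples. Of 10 genes of tRNA maturation and export 1 was higher, the tRNA exporter Xpot, at 0.23 (SE 0.07, adjusted p = 0.079), and it did not pass with a replicate block. Of 7 genes of tRNA editing and selenocysteine supply, 10 partners of mitochondrial tRNA charging and 6 cytosolic elongation factors, 0 passed by edgeR, with 1 gene of each list at an unadjusted p under 0.05. By DESeq2 1 elongation factor passed and 0 of the other 2 lists. Of 76 mitochondrial ribosomal protein genes 2 were higher (Mrpl24 and Mrpl9), a share near the 2.38% of all genes, with a median of 0.07. Under the RPKM scaling these lists had 2, 1, 2, 2 and 9 genes higher in that order, beside 11% of all genes.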

How the data were processed

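Whole-retina RNA was sequenced by the authors with Illumina TruSeq libraries. Reads were mapped with CLC Genomics Workbench 6.0.1, which the study's methods pair with mm9, while gene positions in the deposited tables match GRCm38 and are printed as deposited. The deposited tables hold, per gene and sample, counts of exon, unique exon, exon-exon and gene reads, RPKM computed by the authors, and median coverage by the authors' software (signal). The strand setting is not given in the sources used here.

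Samples were grouped by their labels, 3 sham and 3 ONC. Genes with mean RPKM above 0.3 in either group were tested on exon counts with edgeR 4.0.16 (quasi-likelihood F test, TMM, Benjamini-Hochberg over all tested genes), checked on simulated data. Thresholds were FDR under 0.1, alone and with a fold change above 1.5. SE is the log2 fold change divided by the root of F, which rests on variances moderated across genes and not on the gene's own pools alone. Intron reads were gene minus exon counts, for genes with at least 10 in at least 3 samples. Ratios of reads per kilobase were compared by two-sided exact permutation tests. The members and lists were chosen with earlier results of these data known. Reads, log2 fold change, SE and adjusted p are given for each cytosolic gene past FDR 0.1, its mitochondrial counterpart and the scaffolds. RPKM is added for these cytosolic genes. From related lists at most 6 genes past both thresholds are given, most by log2 fold change and a range of adjusted p-values. Wars, Hars, Kars, Dars, Fars2 and Qars were named after their values were seen. Protein sequences are not used here, and some items are not reported here. Total depth limits precision to the counting and pool error that the SEs estimate.

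Alternatives were DESeq2 1.42.0 (size factors and Wald test), RPKM scaling, limma 3.58.1 on log2(RPKM + 0.1, 1 or 0.01), other level filters, unique exon or gene reads, a replicate block and leaving out each sample. Exon-exon reads, and class medians without Lars2, were added after seeing the data. Deviations of same-numbered samples from their group means correlated at -0.047, -0.033 and 0.003, so numbers were not treated as pairs. Tests were run in R 4.3.3 and Python 3.11.15.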

Additional observations from a re-analysis of the deposited data

How the results depend on the processing

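Across the 36 members and their alternatives, 586 member values kept direction and side of the threshold, 31 fell short of it, 4 newly passed and 26 changed sign. The count of cytosolic genes higher at FDR under 0.1 (11) was 7 with limma at pseudocounts of 0.1 and 0.01, where all genes gave 255 and 214 calls against 833, and 8 to 12 when 1 sample was left out, where calls over all genes numbered 2049 without ONC replicate 1 and as few as 373 with sham replicate 2 removed. The count past both thresholds (2) was 1 with DESeq2's size factors, DESeq2's Wald test, a mean RPKM above 1 or unique exon reads, 5 with the RPKM scaling and with limma at pseudocounts of 0.1 and 0.01, 4 with limma at 1, and 1 to 2 with 1 sample left out. The median of all genes was 0.13 under the RPKM scaling and limma at 0.1 and 0.01, and 0.11 at 1. The cytosolic median (0.23) was 0.35 under the RPKM scaling and limma at 0.1 and 0.01, and 0.34 at 1. It ranged from 0.22 to 0.24 with 1 sample left out. Exon-exon reads gave 380 calls over all genes. The same-numbered samples were not treated as pairs. With a replicate block 10 cytosolic genes passed (Eprs did not), 728 genes passed in all, 1 cytosolic gene passed in introns (Cars) and 0 genes of tRNA maturation and export passed, and the block changed no other member's call in exon reads. Cytosolic intron calls (2) were 0 under exon-read scaling and 0 to 2 with 1 sample left out, and mitochondrial intron calls were 0 to 1. Lower mitochondrial genes (1, Lars2), by FDR and by both thresholds, were 0 with DESeq2's Wald test, limma at each pseudocount and exon-exon reads, 2 with gene reads (Lars2 and Fars2), and 0 to 1 with 1 sample left out. The mitochondrial median (0.05) was 0.17 under the RPKM scaling and limma at 0.1 and 0.01, 0.15 at 1, 0.09 with exon-exon reads and 0.00 with gene reads, and ranged from -0.03 (without sham replicate 2) to 0.10 with 1 sample left out. The leucine ratio difference (1.38) was 0.33 by exon-exon reads. Sign changes touched members near 0 and 2 genes with reads outside spliced exons. Dars was at 0.09 (RPKM scaling) and 0.08 (limma), Aars2 at 0.03, Rars2 at 0.05 and Yars2 at 0.04 to 0.05 under these settings, and Yars2 also at 0.00 with gene reads and 0.09 with exon-exon reads. Fars2 was at -0.73 with gene reads, which include its introns, and Lars2 at 0.02 with exon-exon reads. With 1 sample left out, Cars2 ranged from -0.04 to 0.25, Dars from -0.10 to 0.06, Ears2 from -0.32 to 0.10 and Vars2 from -0.09 to 0.13, and the ratio differences of the histidine, methionine and valine pairs from -0.02 to 0.16, -0.08 to 0.19 and -0.07 to 0.30. Causes of these changes were not tested where none is named.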
